A study of Mus musculus with 170 samples.

Results

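Keratins and other intermediate filament genes were followed in single cells of the mouse heart ventricle at E9.5. The 10 genes, Krt7, Krt8, Krt18, Krt19, Vim, Des, Nes, Lmna, Lmnb1 and Lmnb2, are 10 of the 40549 genes in the table. They were chosen from measured values of these same cells, so their differences between genotypes and between groups of cells are given as a description. Control hearts, labelled wild type, were homozygous for the floxed Dgcr8 allele, carried the ROSA26 mT/mG reporter on 1 allele and had no Cre. The conditional knockout (cKO) hearts were Mesp1Cre/+ with both floxed Dgcr8 alleles and the same reporter, and the labels write them as Dgcr8-/-. Cre came from the Mesp1 locus, which is active in early cardiovascular progenitors, so Dgcr8, a microRNA processing factor, was lost in their descendants and not in cardiomyocytes alone. All embryos were C57BL/6. The question put to these genes was which filament transcripts differ between cardiomyocytes with and without Dgcr8, and whether paired keratins occur in the same cells.

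Intermediate filaments are the rope-like part of the cytoskeleton. Keratins assemble only as pairs of a type II chain, such as the products of Krt7 and Krt8, with a type I chain, such as those of Krt18 and Krt19, and this family is typical of epithelia, the mesothelium-like epicardium included. Vimentin is the filament protein of mesenchymal and endothelial cells, desmin that of muscle, where it links the Z-discs of the myofibrils, and nestin that of many progenitor cells. Lamins form the mesh beneath the inner nuclear membrane in nearly all cells.

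The table held 74 control and 69 cKO cells, in 2 sequencing batches. No label ties a cell to an embryo, which leaves 1 sample per genotype, so no test was run and every ± is an SD across cells. Ward clustering on 57 markers put 36 control cells (24 in batch 1, 12 in batch 2) and all 69 cKO cells (35 and 34) in a cardiomyocyte-like (CM-like) cluster, in which all 15 cardiomyocyte markers were above the other cells. The CM-like cells had a median of 8677 detected genes in control and 8456 in cKO, but the order reversed between batches, with 8282 against 9751 in batch 1 and 9488 against 7765 in batch 2. Sequencing depth is unknown because TPM does not keep it. A division into 6 clusters set apart 11 of these cells, 8 control and 3 cKO, with a median of 52.3% and 19.3% of their TPM from mitochondrial genes against 6.50% and 3.02% in all CM-like cells of each genotype. Values that depend on these 11 cells are therefore given with and without them. The female transcript Xist reached a TPM of 1 in 64 of 69 cKO and 3 of 74 control cells, and the Y-linked Ddx3y in 0 of 69 and 49 of 74, so the sex of the embryos and the genotype cannot be told apart. The reporter filter that the study applied kept recombined cells in cKO and unrecombined cells in control.

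Krt8 and Krt18, a natural type II and type I pair, are neighbours on chromosome 15 in GRCm38, and Krt7 lies in the same keratin cluster. Krt8 runs from 101996698 to 102004482 on the minus strand and Krt18 from 102028180 to 102032027 on the plus strand, with 23697 bp and no other protein-coding gene between them. Krt7, on the plus strand from 101411043 to 101430313, is shown as a contrast, because its transcript stayed near 0 in the CM-like cells in which the pair was abundant. The 250 bases before the start site are printed 5′ to 3′ from RefSeq (GRCm38.p6), for Krt8 from chr15:102004343-102004592 (minus strand), for Krt18 from chr15:102027966-102028215 (plus strand) and for Krt7 from chr15:101412153-101412402 (plus strand). Capitals mark GC boxes (GGGCGG, either strand) and, at the end of the Krt8 line, the first bases of a TATAAA match on both strands that continues past the start.
Krt8: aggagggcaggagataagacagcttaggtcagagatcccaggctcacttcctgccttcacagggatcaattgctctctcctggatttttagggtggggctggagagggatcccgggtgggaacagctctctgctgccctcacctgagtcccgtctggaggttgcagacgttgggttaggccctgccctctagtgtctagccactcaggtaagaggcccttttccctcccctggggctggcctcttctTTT
Krt18: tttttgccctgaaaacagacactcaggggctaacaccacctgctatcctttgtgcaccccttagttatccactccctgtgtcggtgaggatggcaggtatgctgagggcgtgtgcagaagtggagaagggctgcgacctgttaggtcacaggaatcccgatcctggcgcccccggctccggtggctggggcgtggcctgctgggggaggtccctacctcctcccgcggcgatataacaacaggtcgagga
Krt7: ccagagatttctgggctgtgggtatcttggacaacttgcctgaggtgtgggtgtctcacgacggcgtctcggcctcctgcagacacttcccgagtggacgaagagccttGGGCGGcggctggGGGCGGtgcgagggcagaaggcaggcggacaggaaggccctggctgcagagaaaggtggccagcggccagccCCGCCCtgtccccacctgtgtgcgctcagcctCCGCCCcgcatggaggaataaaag
GENCODE M21 places the 5′ ends of the 3 genes farther upstream than RefSeq does, so the end of the Krt8 and Krt18 lines and the whole Krt7 line lie inside the gene in that annotation.

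The promoters of the pair shared none of the motifs searched. In the 300-base window that ends 50 bases after the start, Krt8 and Krt18 each held 0 matches to the CArG box of serum response factor, to the AP-1 motif TGANTCA, to the TEAD motif GGAATG and to the GC box. Krt7 held 4 GC boxes, at −141, −128, −56 and −24 from the start, and no match to the other 3. On either strand, 1.63% of all 32851 promoter windows held a CArG box, 7.81% the AP-1 motif, 14.7% the TEAD motif, 35.7% a GC box and 13.6% TATAAA. Vim, Des, Nes, Lmna and Lmnb2 also matched the table, which has no entry for Krt19 or Lmnb1. Vim held TATAAA at −32, and Des (−87 and −69), Nes (−73 and −62), Lmna (−52) and Lmnb2 (−7) held GC boxes. In Lmna the AP-1 motif was also found, 39 bases after the start. Lmna and Lmnb2 each had another start with its own window, which held no match to any of these motifs.

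Krt19 had the highest mean level of the 4 keratins in CM-like cells of both genotypes. Its gap between genotypes was the widest with a pseudocount of 1, whereas with 0.1 that of Krt18 was wider (5.74 against 5.50). Krt19 (chromosome 11, 100140810 to 100148665, minus strand) encodes a small type I keratin. In control CM-like cells its log2(TPM + 1) ran from 0 to 8.44 with a median of 2.13, and in cKO CM-like cells from 0 to 11.48 with a median of 9.12. Of the 69 cKO cells, 66 lay above the control median and 47 above the highest control cell, so the groups overlapped in their lower part. Without the 11 cells set apart the control median was 4.10, with 61 of 66 cKO cells above it. Among all CM-like cells of batch 2 it was 6.05, with 31 of 34 above. The mean was 3.46 ± 2.78 (n = 36 cells) in control and 8.46 ± 2.43 (n = 69 cells) in cKO, a difference of 5.00 log2 units. It was 5.18 in batch 1 and 3.99 in batch 2, and 4.53 without the 11 cells set apart. Detection, meaning TPM of 1 or above, was seen in 28 of 36 control cells (77.8%, exact 95% interval 60.8% to 89.9%) and in 68 of 69 cKO cells (98.6%, 92.2% to 99.96%). Control against cKO detection was 17 of 24 against 35 of 35 in batch 1 and 11 of 12 against 33 of 34 in batch 2. Without the 11 cells it was 23 of 28 against 65 of 66. All intervals on shares of cells cover counting error only.

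Krt18 followed the same pattern. In control cells its log2(TPM + 1) ran from 0 to 8.56 with a median of 0.91, and in cKO cells from 0.72 to 10.98 with a median of 7.98. Nearly all cKO cells were thus above the middle of the control cells, 68 of 69 of them, and 23 exceeded the highest control cell. Without the 11 cells the control median was 2.83, with 60 of 66 cKO cells above it. Among all CM-like cells of batch 2 it was 5.22, with 29 of 34 above. The mean was 2.65 ± 2.87 in control and 7.28 ± 2.49 in cKO, a difference of 4.63, which was 4.98 in batch 1, 3.46 in batch 2 and 4.16 without the 11 cells. Of the control cells, 17 of 36 had it detected (47.2%, 30.4% to 64.5%), and of the cKO cells 67 of 69 (97.1%, 89.9% to 99.6%). Control against cKO detection was 8 of 24 against 33 of 35 in batch 1 and 9 of 12 against 34 of 34 in batch 2. Without the 11 cells it was 15 of 28 against 65 of 66.

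Krt8, the type II partner of both, was the lowest of the 3. Its log2(TPM + 1) ran from 0 to 8.46 in control with a median of 0.79, and from 0 to 10.91 in cKO with a median of 7.17. The cKO cells spanned the whole control range, 65 of 69 lay above the control median and 17 above the highest control cell. Without the 11 cells the control median was 3.22, with 53 of 66 cKO cells above it. Among all CM-like cells of batch 2 it was 4.63, with 28 of 34 above. The mean was 2.61 ± 2.75 in control and 6.41 ± 3.01 in cKO, a difference of 3.81, which was 4.15 in batch 1, 2.78 in batch 2 and 3.28 without the 11 cells. Detection was 16 of 36 control cells (44.4%, 27.9% to 61.9%) against 62 of 69 cKO cells (89.9%, 80.2% to 95.8%). In batch 1 it was 7 of 24 against 31 of 35, and in batch 2 it was 9 of 12 against 31 of 34. Without the 11 cells it was 16 of 28 against 60 of 66. Within batch 2 it was then 9 of 10 against 30 of 33, so the shares were alike there. Among 15317 genes compared by their pooled difference, Krt19 ranked 3, Krt18 ranked 4 and Krt8 ranked 14 from the top. Krt8 shares 941 bases at 98.6% identity with the annotated pseudogene Krt8-ps, and Krt18 shares 1267 bases at 90.5% with Gm5200. Neither copy has a row in the table, so reads from a copy cannot be told apart from those of the gene.

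**Figure D1:**
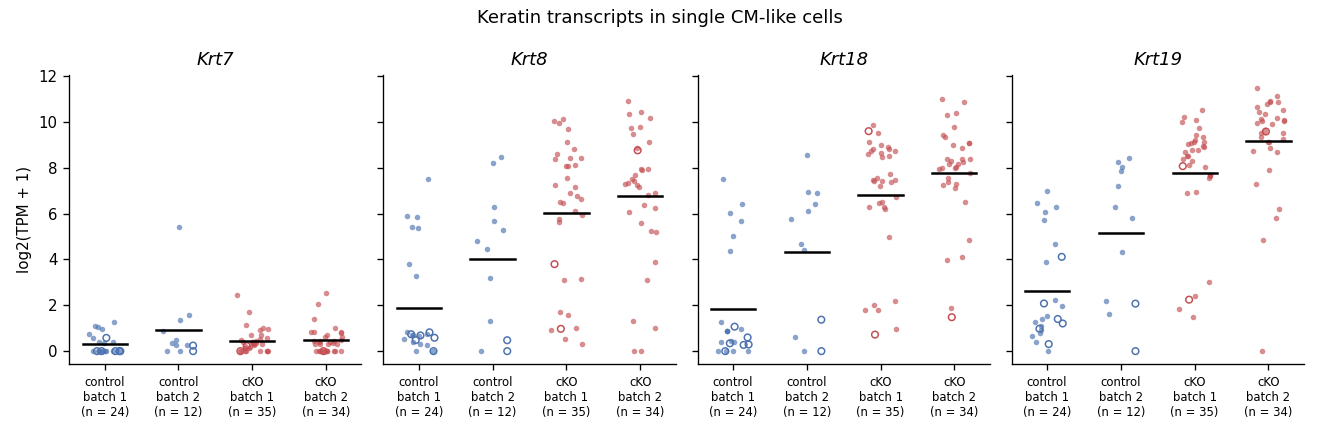
Log2(TPM + 1) of 4 keratins in single CM-like cells (points), by genotype and sequencing batch, with the mean of each group as a black line and open circles for the 11 cells set apart in 6 clusters. In both batches the mean of Krt8, Krt18 and Krt19 is higher in cKO than in control, while Krt7 stays at or below 5.42 in every cell.

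The control cells were not uniform, and the batches differed within the control sample. In batch 1 the mean of control cells was 1.90 for Krt8, 1.82 for Krt18 and 2.60 for Krt19, and in batch 2 it was 4.01, 4.32 and 5.17. Control cells of batch 2 thus held more keratin transcript than those of batch 1. The cKO means were also higher in batch 2, at 6.79, 7.77 and 9.17 against 6.05, 6.80 and 7.78, a smaller step. Whether the batches come from different embryos is not stated, and the part of the batch in these levels was not tested.

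Krt7, the other type II keratin among the members, stayed low in both genotypes. Its log2(TPM + 1) ran from 0 to 5.42 in control cells (median 0.25) and from 0 to 2.56 in cKO cells (median 0.34). It reached a TPM of 1 in 6 of 36 control cells (16.7%, 6.37% to 32.8%) and in 6 of 69 cKO cells (8.70%, 3.26% to 17.97%). The mean difference was −0.04, 0.14 in batch 1 and −0.42 in batch 2, all within the SD across cells of 0.96 in control and 0.55 in cKO. The 1 control cell at 5.42 was also the CM-like cell with the most epicardial markers, 6 of 8.

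Vim was the other member at least 1 log2 unit higher in cKO cells in both batches. Vim (chromosome 2, 13573927 to 13582826, plus strand) was already abundant in control CM-like cells, where its log2(TPM + 1) ran from 0.93 to 9.39 with a median of 7.30. In cKO cells it ran from 2.63 to 11.03 with a median of 8.44, and 55 of 69 were above the control median. The groups overlapped widely, and 11 cKO cells exceeded the highest control cell. The mean was 6.24 ± 2.30 in control and 8.13 ± 1.43 in cKO, a difference of 1.89, which was 1.94 in batch 1, 1.46 in batch 2 and 1.55 without the 11 cells. It was 1.09 in batch 1 and 0.72 in batch 2 after TPM was divided by a size factor per cell, and 0.56 in batch 2 among cells with at least 6000 detected genes, so Vim was no longer 1 unit higher in both batches there.

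Des, the muscle filament gene, differed in batch 1 and hardly in batch 2. Des (chromosome 1, 75360329 to 75368579, plus strand) ran from 0.28 to 8.90 in control CM-like cells (median 7.64) and from 0.96 to 9.52 in cKO cells (median 7.81). The medians lay close together and the ranges coincided almost entirely. The mean was 6.16 ± 2.97 in control and 7.36 ± 1.65 in cKO. The difference of 1.19 was 1.68 in batch 1, 0.21 in batch 2 and 0.24 without the 11 cells, so most of it rested on those cells.

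The 2 batches gave opposite directions for Nes, an intermediate filament gene of progenitor cells. Nes (chromosome 3, 87971078 to 87980451, plus strand) ran from 0 to 6.46 in control cells (median 0.17) and from 0 to 7.61 in cKO cells (median 1.49), with detection in 11 of 36 and 37 of 69 cells. In batch 1, 10 of 24 control cells and 16 of 35 cKO cells held it, with a mean difference of −0.35. In batch 2 it was found in 1 of 12 control (8.33%, 0.211% to 38.5%) and 21 of 34 cKO cells (61.8%, 43.6% to 77.8%), with a mean difference of 2.11. The pooled difference of 0.63 therefore describes neither batch.

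The lamin genes differed by less than their scatter across cells. Lmna (chromosome 3, 88480147 to 88509956, minus strand), which encodes the A-type lamins, ran from 0 to 7.49 in control (median 1.40) and from 0 to 7.12 in cKO cells (median 1.56). Its mean was 2.67 ± 2.59 and 2.34 ± 2.44, a difference of −0.33, −0.37 in batch 1 and −0.80 in batch 2, and it was −1.39 in batch 2 without the 11 cells. The B-type lamin genes Lmnb1 (chromosome 18, 56707813 to 56753424, plus strand) and Lmnb2 (chromosome 10, 80901203 to 80918245, minus strand) differed by 0.19 and −0.27. The Lmnb1 mean was 2.12 ± 1.82 among control cells and 2.32 ± 2.23 among cKO cells. For Lmnb2, found in 11 of 36 control cells and 17 of 69 cKO cells, it was 1.37 ± 2.11 and 1.10 ± 1.86.

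**Figure D2:**
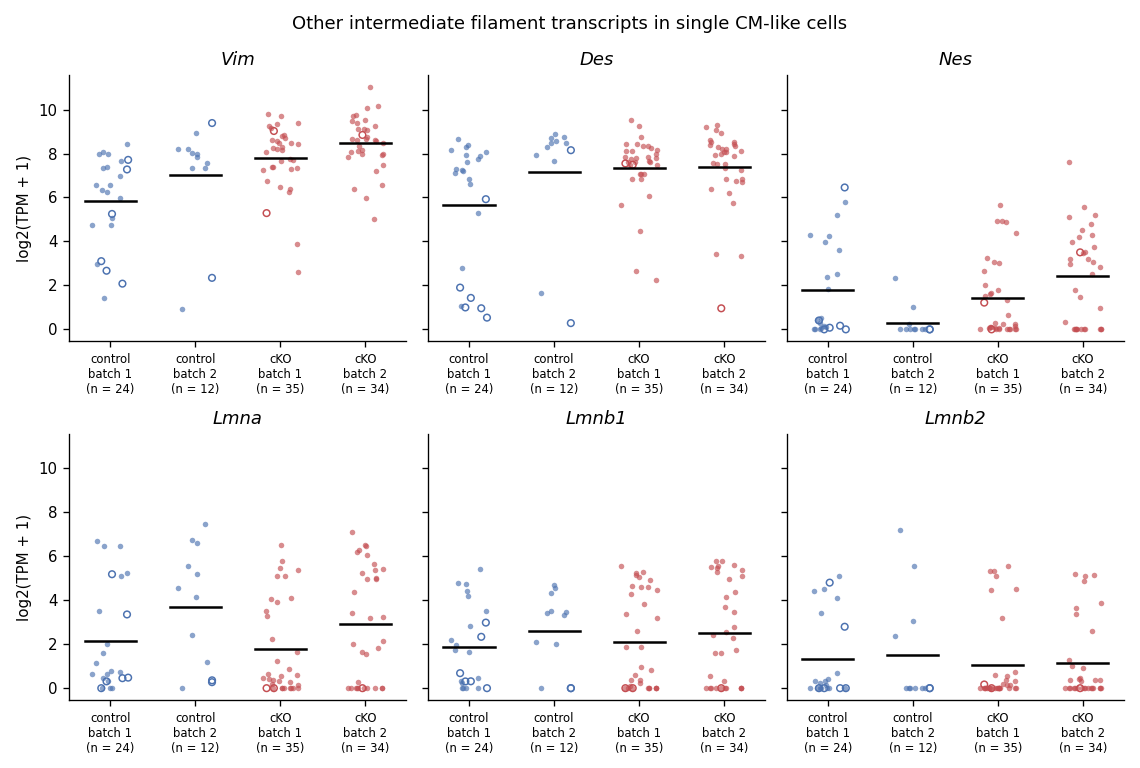
Log2(TPM + 1) of the 6 members that are not keratins in single CM-like cells (points), by genotype and batch, with group means as black lines and open circles for the 11 cells set apart in 6 clusters. Vim means are higher in cKO in both batches (by 1.94 and 1.46), Nes means differ in opposite directions (−0.35 and 2.11), and the low Des values in control are mostly open circles.

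All 10 members passed the filter of a TPM above 0 in more than 10 CM-like cells. Of them, 4 (Krt8, Krt18, Krt19 and Vim) were at least 1 log2 unit higher in cKO cells in both batches and 0 were at least 1 lower. Over all 15317 genes compared, 5.32% were higher and 1.06% lower by the same rule, and since this contrast was used to choose the members nothing is read from the members' count. The median difference was 0.91 over the members and 0.14 over all genes compared. Without the 11 cells the same 4 members were higher by this rule, while over all genes the shares became 2.69% higher and 3.04% lower, and with a size factor per cell 3.02% and 2.12%.

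**Figure D3:**
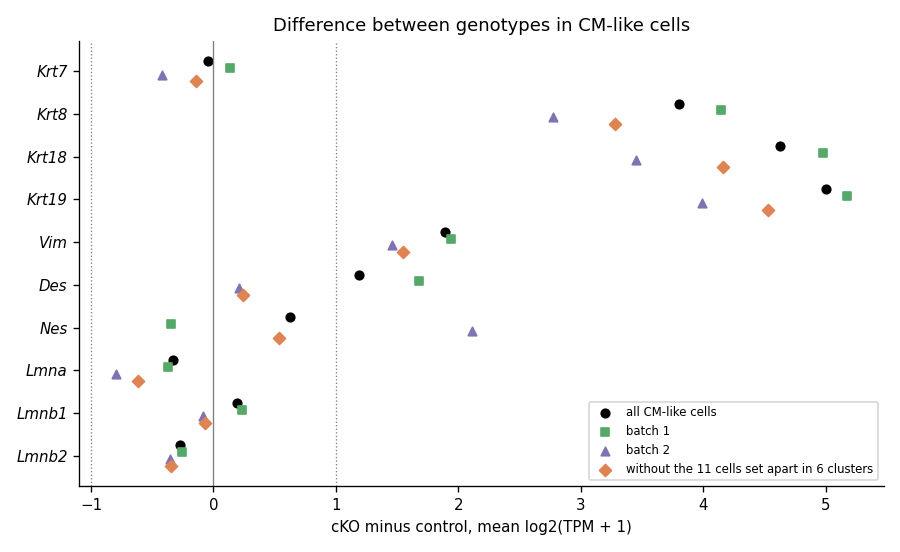
Difference of the mean log2(TPM + 1), cKO minus control, for the 10 members in CM-like cells. Circles are all cells, squares batch 1, triangles batch 2 and diamonds the cells left without the 11 set apart, and dotted lines mark 1 unit either way. Krt8, Krt18 and Krt19 lie at 2.78 or more in both batches.

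Most cKO cells held both chains of the Krt8 and Krt18 pair, at the level their separate detection sets. Both Krt8 and Krt18 were detected in 62 of 69 cKO cells (89.9%, 80.2% to 95.8%) and in 12 of 36 control cells (33.3%, 18.6% to 50.97%). Since 62 cKO cells held Krt8 and 67 held Krt18, the joint count there adds nothing on pairing beyond detection of each gene. These 62 and 12 cells were also the cells that held all 3 of Krt8, Krt18 and Krt19. In batch 1 the pair was found in 31 of 35 cKO and 4 of 24 control cells, and in batch 2 in 31 of 34 and 8 of 12. Without the 11 cells it was 60 of 66 (90.9%) against 12 of 28 (42.9%). In endothelial-like control cells it was 2 of 22 (9.09%, 1.12% to 29.2%).

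In cKO cells, detection of 1 chain alone was likewise bounded by the separate counts. In control the counts set no such bound, since 16 of 36 cells held Krt8, 17 held Krt18 and 12 held both. Pairing beyond the detection of each gene was not tested there. Krt8 without Krt18 occurred in 4 control cells and 0 of 69 cKO cells (up to 4.35% by this count of 0), and only 2 of the cKO cells lacked Krt18 at all. Krt18 without Krt8 occurred in 5 cells of each genotype. Krt19 was the sole keratin of the 3 in 10 control and 2 cKO cells. None of the 3 was detected in 5 control and 0 cKO cells.

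Type I transcripts outnumbered type II transcripts in most paired cells. TPM is corrected for transcript length, so levels of different genes can be set side by side. In the 62 cKO cells with all 3, the median ratio of Krt8 to the sum of Krt18 and Krt19 was 0.197, and the log2 ratio had an SD of 2.13 across cells. In the 12 such control cells the median ratio was 0.323 (SD of the log2 ratio 1.68). Krt19 exceeded Krt18 in 47 of the 62 cKO cells and in 5 of the 12 control cells. The summed TPM of Krt8, Krt18 and Krt19 ran from 5.36 to 6816 in cKO cells with a median of 1052, and from 0 to 903 in control cells with a median of 52.4. It reached 100 in 64 of 69 cKO and 12 of 36 control cells. Within control the median was 4.58 in batch 1 and 193 in batch 2, with 4 of 24 and 8 of 12 cells at 100 or more. Within cKO the medians were 851 and 1333, with 31 of 35 and 33 of 34 cells at 100 or more.

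Across cKO cells the levels of the 3 keratins varied together by rank in both batches, and across control cells less evenly. This is a description, since cells share batch and library quality. In 69 cKO cells, Krt8 and Krt18 had Pearson r = 0.59 and Spearman rho = 0.56 (0.54 in batch 1, 0.61 in batch 2), Krt8 and Krt19 rho = 0.48 (0.57 and 0.46), and Krt18 and Krt19 rho = 0.45 (0.42 and 0.48). Pearson r in batches 1 and 2 was 0.68 and 0.44 for Krt8 and Krt18, and 0.54 and 0.50 for Krt8 and Krt19. For Krt18 and Krt19 it was 0.48 and 0.21, so their relation in batch 2 was weak on this measure. In 36 control cells the pooled rho was 0.56, 0.43 and 0.55, over batches whose means differed. Among the 24 control cells of batch 1 it was 0.30 for Krt8 and Krt18, 0.05 for Krt8 and Krt19, and 0.38 for Krt18 and Krt19. Among the 12 of batch 2 it was 0.91, 0.64 and 0.35. Krt8 and Krt19 thus showed almost no relation in control cells of batch 1. The number of detected genes also moved with the keratins, and its part in these correlations was not tested. Within control batches 1 and 2, its rho was 0.18 and 0.57 with Krt8, 0.55 and 0.55 with Krt18, and 0.31 and 0.48 with Krt19. Within cKO batches 1 and 2 it was 0.37 and 0.41 with Krt8, 0.14 and 0.37 with Krt18, and 0.30 and 0.18 with Krt19. Vim and the keratins had rho between 0.11 and 0.22 in cKO cells.

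**Figure D4:**
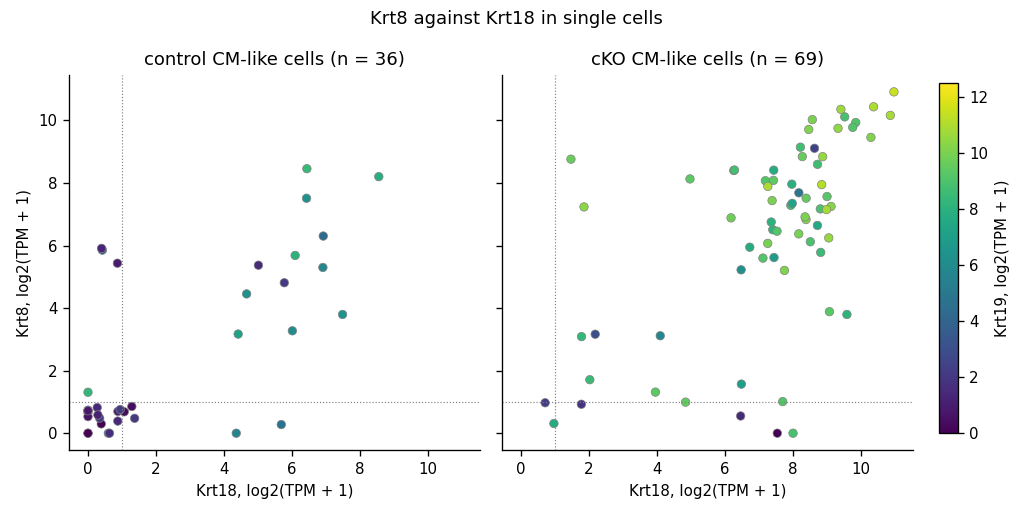
Krt8 against Krt18, both as log2(TPM + 1), in single CM-like cells of control (left) and cKO (right) hearts, coloured by Krt19. Dotted lines mark a TPM of 1, and the upper right field holds 12 of 36 control and 62 of 69 cKO cells.

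The genes whose levels were most like each keratin over the 69 cKO cells were taken from 5622 genes detected widely enough among them to be ranked. For Krt18 the first of these was Krt8, and Krt19 was the fourth. Coq10b (rho = 0.48, but 0.30 in batch 1 and 0.71 in batch 2), the lysosomal protease gene Ctsd (0.47) and Serpinb6a (0.45) were the others of its first 5. For Krt8 the first 5 were P4hb (0.60), which encodes protein disulfide isomerase, Surf4 (0.59), Krt18 (0.56), Ddah1 (0.56) and the smooth muscle actin gene Acta2 (0.56). For Krt19 they were Anxa2 (0.67), which encodes annexin A2, Bmp7 (0.65), the collagen prolyl hydroxylase gene P4ha2 (0.63), the calponin gene Cnn1 (0.61) and the glycolytic gene Tpi1 (0.61), with Krt8 in place 30 and Krt18 in place 69. Within either batch, rho of these 5 genes with Krt19 lay between 0.50 and 0.66.

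Control cells outside the CM-like cluster gave the keratin levels of other heart cells. A cluster of 12 control cells (4 in batch 1, 8 in batch 2) had 6 of 8 epicardial markers (Wt1, Tbx18, Aldh1a2, Upk3b, Upk1b and Sema3d) above all other cells. It also had 8 of 14 mesenchymal markers above, and 3 of these against 2 epicardial markers were among its 10 leading genes, so it was not named as a cell type and is called the epicardial-marker cluster. No cKO cell fell into it, into the endothelial-like cluster of 22 control cells or into the 3 erythroid-like cells. These cell classes and the control sample can therefore not be told apart.

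All 4 keratins were abundant in the epicardial-marker cluster. Krt7 ran from 0.17 to 7.63 with a median of 4.93 and a mean of 4.71 ± 2.08. Krt8 ran from 0 to 9.50 (median 8.40, mean 7.67 ± 2.59) and Krt18 from 1.58 to 10.55 (median 8.11, mean 7.82 ± 2.36). Krt19, the least variable, ran from 6.29 to 9.14 (median 7.86, mean 7.84 ± 0.84). In the 22 endothelial-like cells the means were 0.54 for Krt7, 0.76 for Krt8, 0.51 for Krt18 and 1.14 for Krt19. The order for Krt8, Krt18 and Krt19 among control cells was thus epicardial-marker cluster, CM-like cells, endothelial-like cells. The last 2 differed by less than 1 SD of the CM-like cells in batch 1 (endothelial-like minus CM-like −0.44, −0.97 and −0.79 log2 units) and by more in batch 2 (−3.58, −3.97 and −4.34, against SDs of 3.02, 3.03 and 3.01).

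Compared with control CM-like cells, 6 members were at least 1 log2 unit higher in both batches in the epicardial-marker cluster, against a background of 13.4% of 14517 genes. They were Krt18 (by 5.17 pooled), Krt8 (5.07), Krt19 (4.38), Krt7 (4.21), Lmna (3.40) and Vim (3.24). Des was lower (−5.22), against a background of 2.65%. The values used to choose the members included keratin levels in such control cells, so nothing is read from the counts in this cluster. In endothelial-like cells, Vim (4.38), Lmna (3.45) and Lmnb2 (1.60) were higher against a background of 15.7%, and Des was lower (−4.69) against 2.72%. Lmna and Vim were thus higher in both clusters than in CM-like cells, with means of 6.12 and 10.63 in endothelial-like cells and 6.07 and 9.48 in the epicardial-marker cluster.

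The cKO CM-like cells lay nearer to the epicardial-marker cluster in some keratins than in others. Their mean minus that of the cluster was −1.26 for Krt8 (−2.36 in batch 1 and −0.52 in batch 2). It was −0.55 for Krt18 (−0.20 and −0.46) and 0.62 for Krt19 (−0.36 and 1.48). Each pooled difference was less than the SD across cKO cells. The SD of the cluster was smaller than the gap for Krt8 in batch 1 (0.91, 4 cells) and for Krt19 in batch 2 (0.95, 8 cells). For Krt19, 31 of 69 cKO cells lay above the highest cell of the cluster. Krt7 was different. Its mean was lower by 4.25 in cKO CM-like cells, and 11 of the 12 cells of the cluster lay above the highest cKO cell. Relative to the cluster, these cells had Lmna lower by 3.74 and Des higher by 6.41. The summed TPM of Krt8, Krt18 and Krt19 had a median of 967 in the cluster, from 287 to 2501, against 1052 in cKO CM-like cells.

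**Figure D5:**
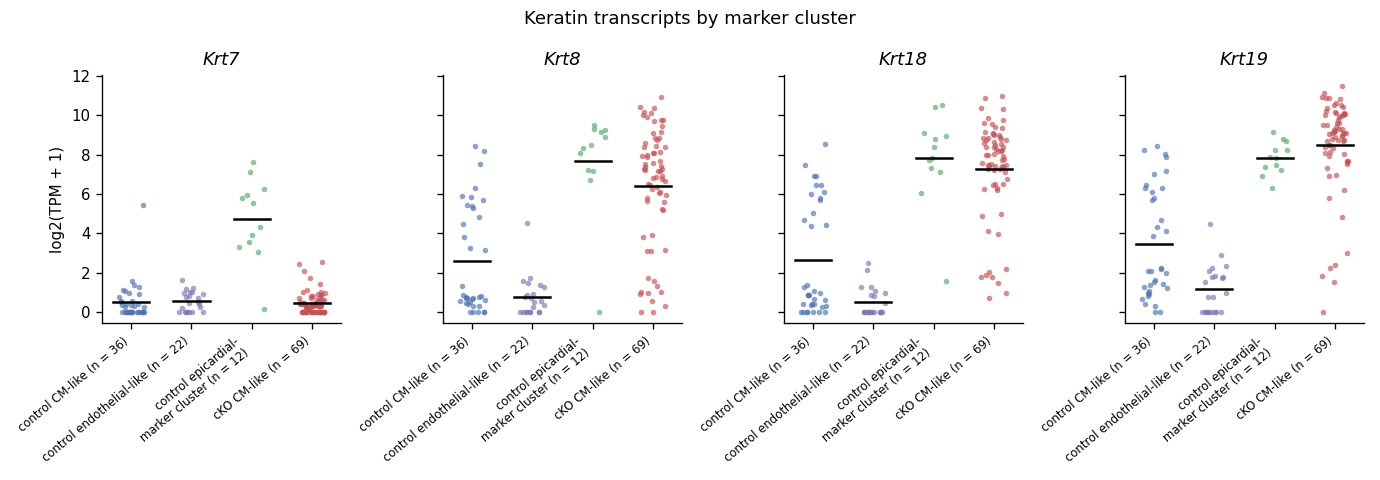
Log2(TPM + 1) of the 4 keratins in single cells (points) of 3 control clusters and of cKO CM-like cells, with means as black lines. Krt8, Krt18 and Krt19 are high in both the epicardial-marker cluster and cKO CM-like cells, whereas Krt7 is high only in the former of these 4 groups (mean 4.71 against 0.47).

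The small remainder of control cells also held keratins. A single cell that clustered with no other had 4.29 for Krt7, 7.69 for Krt8, 9.82 for Krt18 and 8.06 for Krt19, with 5 of 8 epicardial markers detected. Of the 3 erythroid-like cells, 1 had 9.22 for Krt8, 9.22 for Krt18 and 9.19 for Krt19, with 6 epicardial markers detected. Another of the 3 had 6.97 for Krt8 and 7.56 for Krt18 with 0 epicardial markers, and the third had 0 for all 4 keratins. The cell with 0 epicardial markers and 6.97 for Krt8 had 3949 detected genes and 15.7% of its TPM from mitochondrial genes. Both this cell and the one with 6 epicardial markers had 5 endothelial markers detected. Whether they hold transcripts of more than 1 cell was not tested.

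Markers of epicardial and epithelial cells were measured in the same CM-like cells. The 8 epicardial markers summed to between 0 and 503 TPM in control cells (median 3.83) and between 0 and 454 in cKO cells (median 30.8). The median cell of either genotype had 1 of them at a TPM of at least 1, and the highest cKO cell had 3. Of the 4 compared, 0 were at least 1 unit higher or lower in both batches. Wt1, the epicardial transcription factor gene, differed most, by 0.97 (1.66 in batch 1, −0.01 in batch 2), then Upk1b by 0.26, Tbx18 by 0.18 and Upk3b by −0.19. Of the epicardial markers, 3 reached a TPM of 1 in no cKO and 2 in no control CM-like cell. Of the 8 epithelial markers only Prom1 was compared, at a difference of 0.55, with detection in 2 of 36 control and 12 of 69 cKO cells. Among these 8 markers, 3 reached a TPM of 1 in no cKO and 5 in no control CM-like cell. In cKO cells the summed epicardial markers had rho of 0.12 with Krt8, 0.04 with Krt18 and 0.23 with Krt19. Within cKO batches 1 and 2 it was 0.28 and −0.02 with Krt8, 0.27 and −0.09 with Krt18, and 0.25 and 0.24 with Krt19. In control CM-like cells the pooled rho was higher, at 0.47, 0.40 and 0.49 in the same order of genes. Without the 4 CM-like cells that had 3 or more epicardial markers, a group set after these values were seen, the difference was 3.97 for Krt8, 4.80 for Krt18 and 5.24 for Krt19.

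The gap between genotypes in Krt8, Krt18 and Krt19 did not extend to other keratins. Of 47 other keratin rows, 40 were below a TPM of 1 in every control and 38 in every cKO CM-like cell. The 5 that could be compared ranged from Krt20 (−0.15) and Krt222 (−0.10) to Krt26 (0.20) and Krt10 (0.25), and 0 were higher or lower in both batches. The nearest protein-coding genes of the 3 gave little signal, with 1 exception. Krt78 and Krt79 beside Krt8, and Krt15, Krt9 and Krt14 beside Krt19, were not detected at a TPM of 1 in any CM-like cell, and Krt13 was detected in 1 control cell. Eif4b, a translation factor gene 41745 bp past Krt18, was found in 28 of 36 control cells and 63 of 69 cKO cells and differed by 0.60. Tns2, the next gene, has no row. Of 10 other intermediate filament genes 3 were compared, Synm (0.29), Nefm (0.13) and Nefl (−0.48), and 0 passed the limit of 1 unit in both batches.

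Genes that anchor intermediate filaments were higher in part. Of 11 cytolinker and desmosome genes, 8 could be compared, and 4 (Macf1, Dst, Dsp and Pkp2) were at least 1 unit higher in cKO cells in both batches, with a median of 1.56 over the 8. The share of all genes compared that passed in this direction was 5.32%. The cardiomyocyte markers moved with this list, with 5 of 15 higher, 1 lower and a median of 1.22, and their part in it was not tested. The largest pooled differences were those of the plakoglobin gene Jup, 2.13 (2.78 and 0.79 in the batches), and of the plakophilin gene Pkp2, 2.08 (2.27 and 1.52). The smallest were those of the desmosomal cadherin gene Dsg2, 0.46, and of the plectin gene Plec, 0.76. Without the 11 cells only Macf1 of the 8 remained past the limit in both batches, and the median was 1.30, beside 2.69% of all genes, and 1 of the 15 cardiomyocyte markers was higher with a median of 0.37. Of 12 nuclear envelope genes that act with the lamins, only Sun1 (1.39) was higher in both batches and 0 were lower, a share near the 5.32% and 1.06% of all genes. Syne2, which like Sun1 links the nucleus to the cytoskeleton, differed by 1.15, the lamin B receptor gene Lbr by −1.01 and the prelamin protease gene Zmpste24 by −0.11.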

How the data were processed

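Transcript levels of E9.5 ventricular cells, picked by hand, were measured by Smart-seq2. The authors mapped reads to mm10 with Salmon (version and annotation release not given in the sources used here), kept well-mapped cells, removed cells with unfitting reporter expression, and deposited TPM per gene. TPM keeps no depth and amplified reads carried no molecular identifiers. The table has 143 columns, and 27 of the 170 labelled samples were not analysed here. Values are log2(TPM + 1) and detection is a TPM of at least 1. Cells were clustered by Ward linkage on z-scored markers into 5 clusters. A cluster was named with 3 or more markers of a class whose mean lay 1 log2 unit or more over the remaining cells and which most of its cells held, if no other class led among its top 10 genes. These naming limits, the rule that clusters under 3 cells stay unnamed, the TATAAA search and 2 alternatives (6 clusters for paired detection, fewer than 3 epicardial markers) were set after seeing the data. No doublet caller was run, because cells were picked singly.

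Differences are cKO minus control means of CM-like cells, pooled and within each batch, for genes found (any TPM over 0) in over 10 CM-like cells, and a gene counts as higher or lower at 1 log2 unit in both batches. The pseudocount understates changes of low genes. Shares have exact Clopper-Pearson 95% intervals, and a count of 0 allows up to 3 cells of the total. The members and gene lists were chosen with earlier results of these data known. Named genes are all members, the 2 largest and 2 smallest differences of each list, the 5 genes most like each keratin (by Spearman rho over cKO cells, among genes with TPM of 1 or above in 50% of them) and the 2 nearest protein-coding genes on each side. Copies were sought with BLAST+ 2.17.0 among GENCODE M21 transcripts (at least 90% identity over 300 bases). Computations used Python 3.11.15, pandas 2.3.3 and scipy 1.17.1, and the difference and call rule was run on simulated data. Each gene was drawn there independently of the others, so this run could not show how cell quality affects the calls.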

Additional observations from a re-analysis of the deposited data

How the results depend on the processing

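Krt8, Krt18 and Krt19 were at least 1 log2 unit higher in cKO cells under all 14 alternatives. The differences, pooled except where a batch was taken alone, ran from 2.51 to 4.63, 3.07 to 5.74 and 3.67 to 5.50. Batch 2 values were lowest among cells with at least 6000 detected genes, at 1.83, 2.54 and 2.95. In batch 1 they were 4.11, 4.96 and 5.22 for the same choice of cells. With all cells of each genotype in place of CM-like cells, the cells of all other clusters come into control only. These are the endothelial-like, epicardial-marker and erythroid-like cells and the single cell. Vim then turned to −0.0049, Des became 3.75, Krt7 −0.81 and 1 member, Lmna, was lower in both batches. Krt7 was −0.73 as a log2 ratio of mean TPM, where 1 control cell at 5.42 on the log2 scale weighs most in the mean. Vim was not past 1 unit in both batches under 5 alternatives (all cells, the ratio of mean TPM, clusters from variable genes, at least 6000 detected genes, a size factor), and the cause was not tested. The number of members higher was between 3 and 5. Krt8 and Krt18 together moved to 72.2% of control and 97.1% of cKO cells at any TPM above 0, and to 76.8% of cKO cells at a TPM of at least 10, by the limit itself. In the 24 control cells with 2 or more epicardial markers, a wider group than the epicardial-marker cluster, the levels were lower, at 3.08 for Krt7, 6.06 for Krt8, 6.37 for Krt18 and 6.65 for Krt19. The median of all genes compared was 0.03 with 6 clusters and 0.04 with a size factor against 0.14. No paired analysis was possible because titles number cells, not animals. Sequencing depth is unknown, so the absence of a transcript from a cell was not shown. Leaving out a replicate could not be done with 1 sample per genotype.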
